A study of Mus musculus with 18 samples.

Results

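Fc receptors bind the constant part of antibodies. In bone-marrow-derived dendritic cells, 7 genes of such receptors, their signalling chain and a receptor-like relative were followed. They were taken by gene symbol from the 23420 genes listed for each library: Fcgr1, Fcgr3, Fcgr4, Fcgr2b, Fcer1g, Fcgrt and Fcrls. All 7 had enough reads to be tested, among 11876 genes tested.

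RNA from C57BL/6 marrow cultures grown in 20 ng/ml GM-CSF was sequenced after 8 hours of treatment, from live cells sorted for high CD11c. There were 18 libraries, 3 in each of 6 groups. Wild-type (WT) cells received medium, LPS (a bacterial ligand of the receptor TLR4), IL10 + TGF-β (called the cytokines here), or LPS + IL10 + TGF-β. Cells labelled Bat3 fl/fl CD11c Cre (cKO), in which Cre driven by the CD11c promoter acts on floxed alleles of Bat3, now named Bag6, received medium or LPS. The labels do not say whether WT cells carried a Cre or floxed allele, nor name the animal or culture behind each library, so p-values measure the spread between these libraries. Total expected counts per library ran from 8056831 to 12068759. Bag6 was at 4.56 to 11.3 CPM (counts scaled to library size) in the 6 cKO libraries and at 22.8 to 27.6 CPM in the 12 WT libraries. Its mean in cKO cells was 5.56 CPM in medium, 4.23-fold below WT, and 9.36 CPM in LPS, 2.56-fold below WT. The libraries of both cKO groups overlapped. Within cKO cells Bag6 was nonetheless called 1.69-fold higher with LPS (log2 fold change 0.76 ± 0.19, SE, adjusted p = 0.0018 in edgeR's quasi-likelihood test).

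Activating Fc gamma receptors bind IgG on their ligand-binding chain and signal through the gamma chain encoded by Fcer1g, whose ITAM motif recruits the kinase SYK. Fcgr2b encodes the inhibitory receptor, whose ITIM motif recruits the phosphatase SHIP-1. Dendritic cells use these receptors to take up IgG immune complexes for antigen presentation, and the balance of both kinds sets the threshold for activation. Fcgrt encodes the neonatal Fc receptor, an intracellular IgG carrier related to MHC class I, and Fcrls is a scavenger-receptor-like member of the Fc receptor-like family.

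Fcgr2b, Fcgr4, Fcgr3 and Fcer1g lie within 273.8 kb of chromosome 1 in the mouse GRCm38 (mm10) assembly, at 170960558 to 170976071, 171018926 to 171029761, 171051169 to 171065915 and 171229572 to 171234349. Fcgr1 (96282909 to 96293969) and Fcrls (87250736 to 87263765) lie on chromosome 3, and Fcgrt lies on chromosome 7 (45092993 to 45103822). The GENCODE annotation places antisense genes over Fcgr2b (Gm38204) and Fcgrt (Gm45669), whose reads cannot be told apart without strand. Of the 50-base stretches of the Fcgr3 transcript, 12.8% also occur in Fcgr2b, so the division of reads between this pair is less certain than for the others. No such stretch was shared by any other pair of the 7 genes.

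The promoters of the 4 ligand-binding Fc gamma receptor chains are printed because these genes rose to very different extents under the same treatments. Each run holds the 250 bases before the RefSeq start (GRCm38.p6), 5′ to 3′ on the gene's strand, and capitals mark motif matches on either strand.
Fcgr1: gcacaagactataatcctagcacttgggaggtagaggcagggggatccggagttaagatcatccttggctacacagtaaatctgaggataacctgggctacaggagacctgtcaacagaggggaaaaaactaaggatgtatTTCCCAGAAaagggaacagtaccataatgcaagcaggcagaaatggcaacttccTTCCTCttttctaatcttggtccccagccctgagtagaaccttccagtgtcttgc
Fcgr4: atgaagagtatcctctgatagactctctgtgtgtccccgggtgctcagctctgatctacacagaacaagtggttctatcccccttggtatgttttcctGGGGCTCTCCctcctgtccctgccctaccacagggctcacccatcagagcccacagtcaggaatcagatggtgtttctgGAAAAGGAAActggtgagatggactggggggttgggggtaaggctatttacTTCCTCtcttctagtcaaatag
Fcgr3: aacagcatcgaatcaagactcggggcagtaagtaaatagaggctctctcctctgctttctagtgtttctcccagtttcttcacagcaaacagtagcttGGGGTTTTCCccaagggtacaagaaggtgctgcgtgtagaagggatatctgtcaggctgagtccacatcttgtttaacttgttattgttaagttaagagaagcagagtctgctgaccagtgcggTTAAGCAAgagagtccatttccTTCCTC
Fcgr2b: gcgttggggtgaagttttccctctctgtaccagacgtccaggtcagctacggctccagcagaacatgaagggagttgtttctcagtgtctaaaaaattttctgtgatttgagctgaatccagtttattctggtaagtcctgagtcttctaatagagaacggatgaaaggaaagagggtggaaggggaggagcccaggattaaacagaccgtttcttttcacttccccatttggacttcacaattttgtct
These are chr3:96293970-96294219, minus strand for Fcgr1, chr1:171018676-171018925, plus strand for Fcgr4, chr1:171059404-171059653, minus strand for Fcgr3 and chr1:170976072-170976321, minus strand for Fcgr2b. The Fcgr3 run lies inside the gene span given above, before a start that is downstream of the outermost end of that span. Another start is listed within a few bases of it. The search used the STAT motif TTCNNNGAA, the interferon response core (GAAA, 2 free bases, GAAA), the PU.1 motif GAGGAA, the C/EBP motif TTGCNNAA and the NF-kB consensus.

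The Fcgr1 window held the STAT motif as TTCCCAGAA at positions -109 to -101 before the start, which 7.02% of all 32851 mouse promoter windows of this length match. The Fcgr4 window held the interferon response core as GAAAAGGAAA at -73 to -64, found in 2.98% of windows, and an NF-kB match (7.25% of windows). Fcgr3 held matches to NF-kB and C/EBP (9.56% of windows). Fcgr1, Fcgr4 and Fcgr3 each held a PU.1 match near the start. A PU.1 match at any position was found in 23.3% of windows. The Fcgr2b window held none of the 5 motifs. In the pairs of motifs searched, no marked match overlapped another in these windows. A link between these matches and the responses of the genes was not tested.

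LPS and the cytokines both shifted nearly the whole family. In WT cells LPS raised 5 of the 7 genes and lowered 2, where 58.7% of all tested genes were called at an adjusted p under 0.05 in edgeR's quasi-likelihood test (29.8% higher, 28.9% lower). The cytokines raised 6 and lowered 0 (35.2% of all genes called, 18.3% higher and 16.9% lower). Added to LPS, the cytokines raised 5 and lowered 0 (40.3% called, 19.1% higher and 21.1% lower), and LPS added to the cytokines raised 5 and lowered 2 (46.9% called, 23.9% higher and 23.1% lower). In cKO cells LPS also raised 5 and lowered 2 (64.1% called, 29.3% higher and 34.8% lower). Between genotypes, cKO cells had 2 genes higher and 3 lower in medium (30.2% called, 15.8% higher and 14.4% lower). In LPS cKO cells had 4 higher and 0 lower (35.3% called, 16% higher and 19.3% lower). For the interaction of genotype with LPS 2 members were called higher and 0 lower (17.4% called, 7.33% higher and 10.1% lower), and for that of the cytokines with LPS 2 higher and 2 lower (20.9% called, 8.88% higher and 12.1% lower). The median log2 fold change of the 7 was 0.55 for LPS and 0.57 for the cytokines in WT cells, beside 0.01 and -0.0016 over all genes. Comparisons that use the same control libraries are not independent of each other.

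Directions of many genes depend on the scale. On log2(TPM + 1) the median of all genes moved to -0.19 for LPS in WT, -0.12 for the cytokines, -0.11 for LPS added to cytokines, -0.31 between genotypes in LPS and -0.47 for LPS in cKO. Of the genes called, the share called higher was then 32.9%, 34.1%, 35.8%, 11.8% and 21.6% in those comparisons, beside 50.7%, 52.0%, 50.9%, 45.3% and 45.7% in CPM. Between genotypes in medium it was 39.4% beside 52.4%. For the genotype interaction it was 12.7% on that scale and 55.2% with RLE scaling beside 42.0%, and for the cytokine interaction 56.1% and, with upper-quartile scaling, 55.7% beside 42.4%.

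**Figure D1:**
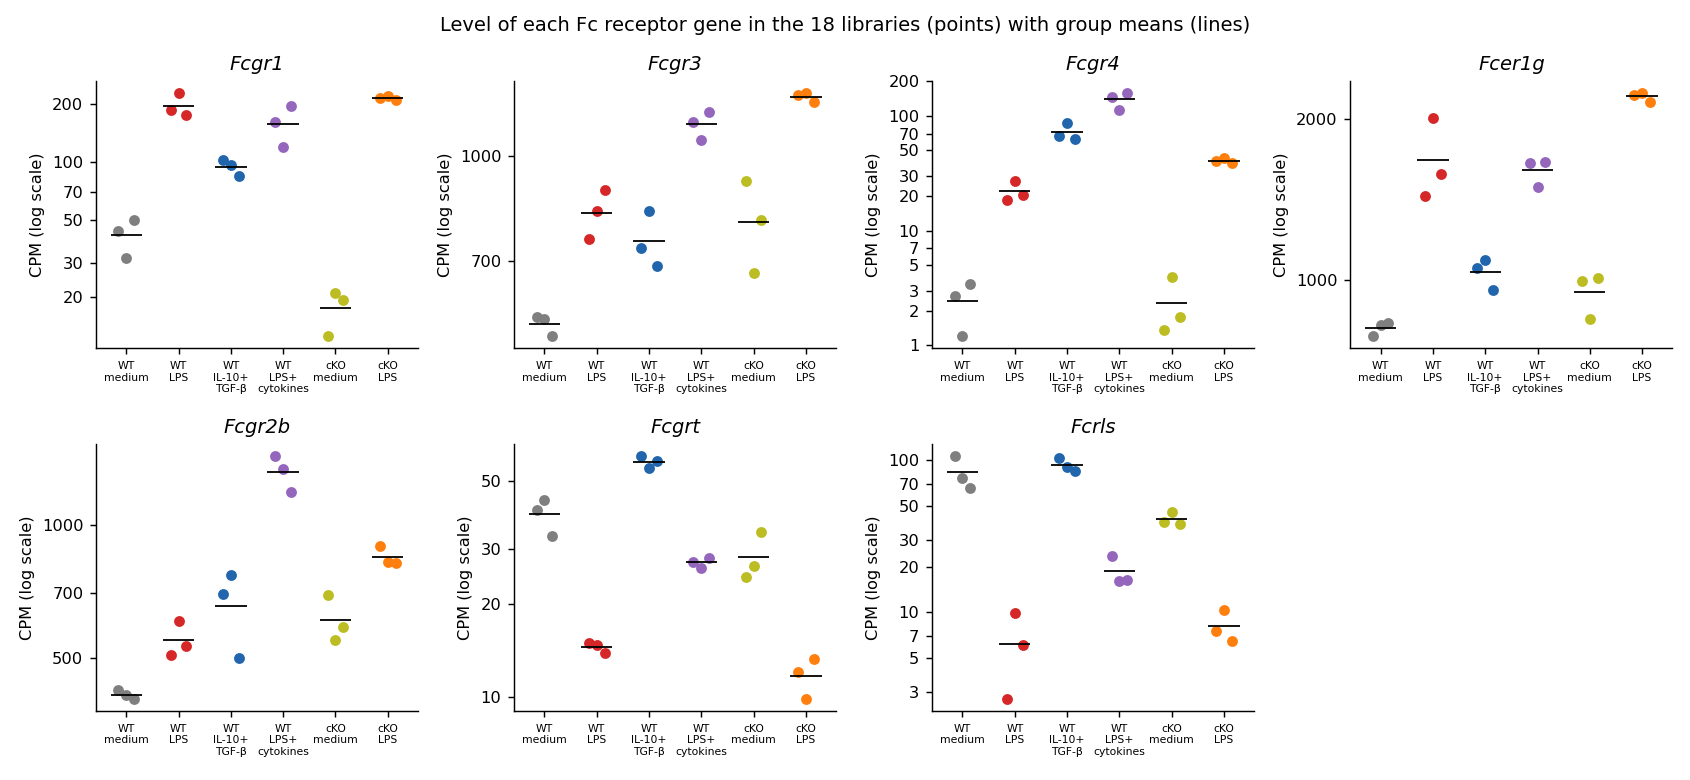
Level of each of the 7 genes in CPM on a log axis, by group, with 1 point per library and a line at the group mean. Fcgr4 runs from 1.20 CPM in a WT medium library to 158 CPM in a library given LPS and cytokines, while Fcrls and Fcgrt are lowest in the libraries given LPS alone.

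Per transcript length, Fcer1g was the most abundant of the 7 in every group, with mean levels from 2607 TPM in WT medium to 4635 TPM in cKO LPS. Fcgr3 (811 to 1312 TPM) and Fcgr2b (547 to 1455 TPM) followed. Fcgr1 (12.1 to 119 TPM), Fcgr4 (3.51 to 178 TPM), Fcrls (4.85 to 80.2 TPM) and Fcgrt (8.41 to 57.6 TPM) were far lower. TPM is scaled to the transcripts of each library, and the CPM values that follow compare 1 gene between groups.

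Fcgr4, an activating receptor for IgG2a and IgG2b, changed most. It was at 2.72, 1.20 and 3.45 CPM in WT medium, resting on 14 to 41 expected counts per library. It was at 18.4, 27.3 and 20.6 CPM in WT LPS, at 67.3, 87.3 and 62.3 CPM with the cytokines, and at 146, 114 and 158 CPM with LPS and cytokines together. The 4 WT groups did not overlap. The cytokines alone raised Fcgr4 29.2-fold (log2 fold change 4.87 ± 0.30, SE, adjusted p = 1.7e-09), the 53rd largest rise of 11876 genes. LPS alone raised it 8.93-fold (3.16 ± 0.31, adjusted p = 2.3e-07). The joint treatment stood 6.30-fold above LPS alone (2.65 ± 0.24, adjusted p = 2e-07) and 1.92-fold above the cytokines alone (0.94 ± 0.22, adjusted p = 0.002). The last call was lost on log2(TPM + 0.1), at 0.80 with an adjusted p = 0.084 from limma, where the median of all genes was -0.14. On the log2 scale the effect of LPS was smaller in the presence of the cytokines than without them (interaction -2.22 ± 0.38, adjusted p = 0.00056). In mean CPM, LPS took Fcgr4 from 2.46 to 22.1 without the cytokines and from 72.3 to 139 with them, a larger absolute gain.

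In cKO cells Fcgr4 was at 1.36, 3.94 and 1.77 CPM in medium, overlapping with WT medium, and its difference of -0.07 has a 95% interval from -0.88 to 0.73. With LPS it reached 40.3, 42.7 and 38.6 CPM, above each WT LPS library. This 1.84-fold difference (0.88 ± 0.24, adjusted p = 0.01) did not hold its call when WT LPS replicate 1 was left out (0.76, adjusted p = 0.055) and on the TPM scale, meaning log2(TPM + 1) in limma (0.52, adjusted p = 0.14). Relative to the median of all genes the TPM value was 0.83, beside 0.93 in CPM. The interaction of genotype with LPS was 0.95 ± 0.48 and did not pass (adjusted p = 0.18). It passed without cKO medium replicate 2 (1.53, adjusted p = 0.032) and with no count filter (0.98, adjusted p = 0.0038).

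Fcgr1 encodes the high-affinity IgG receptor, a gene induced by interferon gamma. It was at 43.8, 31.8 and 50.2 CPM in WT medium and at 186, 228 and 176 CPM in WT LPS. With the cytokines it was at 102, 96.8 and 85.0 CPM, and with LPS and cytokines at 161, 119 and 195 CPM. Both treatments alone raised it: LPS 4.69-fold (2.23 ± 0.20, adjusted p = 3.7e-08) and the cytokines 2.26-fold (1.17 ± 0.19, adjusted p = 0.00012). Adding the cytokines to LPS gave -0.31 ± 0.19 (adjusted p = 0.2, 95% interval -0.67 to 0.05), and these libraries overlapped. Adding LPS to the cytokines raised it 1.68-fold (0.75 ± 0.19, adjusted p = 0.0035). The LPS effect was smaller with the cytokines than without, with an interaction of -1.48 ± 0.27 (adjusted p = 0.00066).

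Fcgr1 was the member that fell most in resting cKO cells. It was at 12.5, 21.1 and 19.3 CPM in cKO medium, below each WT medium library, a 2.38-fold lower level (-1.25 ± 0.20, adjusted p = 0.00027). With LPS the cKO libraries were at 217, 220.5 and 210.1 CPM, within the range of WT LPS (0.13 ± 0.19, adjusted p = 0.62, 95% interval -0.23 to 0.50). LPS therefore spanned 12.2-fold in cKO cells (3.61 ± 0.21, adjusted p = 1.5e-10). The LPS responses of the genotypes differed by 1.38 ± 0.28 (adjusted p = 0.0031), the only other member called for this interaction being Fcrls. On the TPM scale the difference in LPS was -0.22 (adjusted p = 0.35), where the median of all genes was -0.31.

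Fcgr3, the low-affinity activating receptor that mouse dendritic cells carry in quantity, moved less but in the same direction throughout. It was at 578, 574 and 542 CPM in WT medium, at 755, 829 and 889 CPM in WT LPS and at 730, 828 and 689 CPM with the cytokines. LPS with cytokines gave 1123, 1054 and 1161 CPM. The rises were 1.46-fold with LPS (0.55 ± 0.10, adjusted p = 0.00013) and 1.33-fold with the cytokines (0.41 ± 0.10, adjusted p = 0.004). The joint treatment was 1.35-fold above LPS (0.43 ± 0.10, adjusted p = 0.0021) and 1.48-fold above the cytokines (0.57 ± 0.10, adjusted p = 0.00014). The LPS effect with and without the cytokines differed by only 0.02 ± 0.15 (adjusted p = 0.94, 95% interval -0.26 to 0.31).

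The cKO libraries held more Fcgr3 than WT libraries in both conditions. They were at 918, 672 and 805 CPM in medium and at 1227, 1237 and 1199 CPM in LPS. Neither condition overlapped with its WT group, at 1.41-fold in medium (0.50 ± 0.10, adjusted p = 0.0012) and 1.48-fold in LPS (0.57 ± 0.10, adjusted p = 0.00032). On the TPM scale the difference in LPS was 0.21 (adjusted p = 0.056), or 0.52 above the median of all genes. The rise of Fcgr3 with LPS in cKO cells (0.61 ± 0.10, adjusted p = 2.9e-05) was 0.09 on the TPM scale (adjusted p = 0.35), where the median of all genes was -0.47.

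Fcer1g, the shared signalling chain, rose with LPS. It was at 784, 824 and 828 CPM in WT medium and at 1433, 2006 and 1575 CPM in WT LPS, a 2.06-fold rise (1.04 ± 0.11, adjusted p = 6.8e-08). With the cytokines it was at 1052, 1091 and 958 CPM, a 1.27-fold rise (0.35 ± 0.11, adjusted p = 0.016). That smaller call was lost without WT cytokine replicate 2 (0.31, adjusted p = 0.07) or WT medium replicate 1 (0.32, adjusted p = 0.062). LPS with cytokines gave 1656, 1490 and 1658 CPM, overlapping with LPS alone (-0.06 ± 0.11, adjusted p = 0.68, 95% interval -0.27 to 0.15) and 1.55-fold above the cytokines alone (0.63 ± 0.11, adjusted p = 7.7e-05). The interaction of cytokines with LPS was -0.41 ± 0.15 and did not pass (adjusted p = 0.063). It passed with DESeq2 (-0.41, adjusted p = 0.041) and without WT LPS replicate 1 (-0.51, adjusted p = 0.016).

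In cKO cells Fcer1g was at 993, 845 and 1009 CPM in medium, each above the WT libraries, but the difference did not pass (0.22 ± 0.11, adjusted p = 0.12). It passed without cKO medium replicate 2 (0.30, adjusted p = 0.049). In LPS the cKO libraries were at 2217, 2232 and 2152 CPM, 1.32-fold above WT LPS (0.40 ± 0.11, adjusted p = 0.0075). This call was lost without WT LPS replicate 1 (0.30, adjusted p = 0.051) and on the TPM scale (0.05, adjusted p = 0.61), where the median of all genes was -0.31.

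Fcgr2b, the inhibitory receptor, was highest under the joint treatment. It was at 423, 411 and 404 CPM in WT medium, at 508, 606 and 531 CPM in WT LPS and at 700, 770 and 499 CPM with the cytokines. With LPS and cytokines it reached 1435, 1337 and 1191 CPM, above every other library of the series. This was 2.41-fold above LPS alone (1.27 ± 0.13, adjusted p = 1.2e-07) and 2.01-fold above the cytokines alone (1.01 ± 0.13, adjusted p = 2.2e-06). LPS raised Fcgr2b more in the presence of the cytokines than without them (interaction 0.60 ± 0.18, adjusted p = 0.021). That call was lost without replicate 1 of the LPS and cytokine group (0.54, adjusted p = 0.061) or replicate 3 of the cytokine group (0.44, adjusted p = 0.052).

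LPS alone raised Fcgr2b 1.33-fold (0.41 ± 0.13, adjusted p = 0.0092), a call lost on the TPM scale (0.16, adjusted p = 0.23) and with upper-quartile scaling (0.29, adjusted p = 0.055). The median of all genes was -0.19 and -0.11 on those scales. The cytokines alone raised it 1.59-fold (0.67 ± 0.13, adjusted p = 0.0003). The cKO libraries were at 693, 548 and 589 CPM in medium and at 896, 826 and 819 CPM in LPS, without overlap with WT. They stood 1.48-fold above WT in medium (0.56 ± 0.13, adjusted p = 0.0025) and 1.54-fold above WT in LPS (0.63 ± 0.13, adjusted p = 0.0008). The LPS rise within cKO cells (0.47 ± 0.13, adjusted p = 0.0028) was -0.0079 on the TPM scale (adjusted p = 0.95), where all genes had a median of -0.47.

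**Figure D2:**
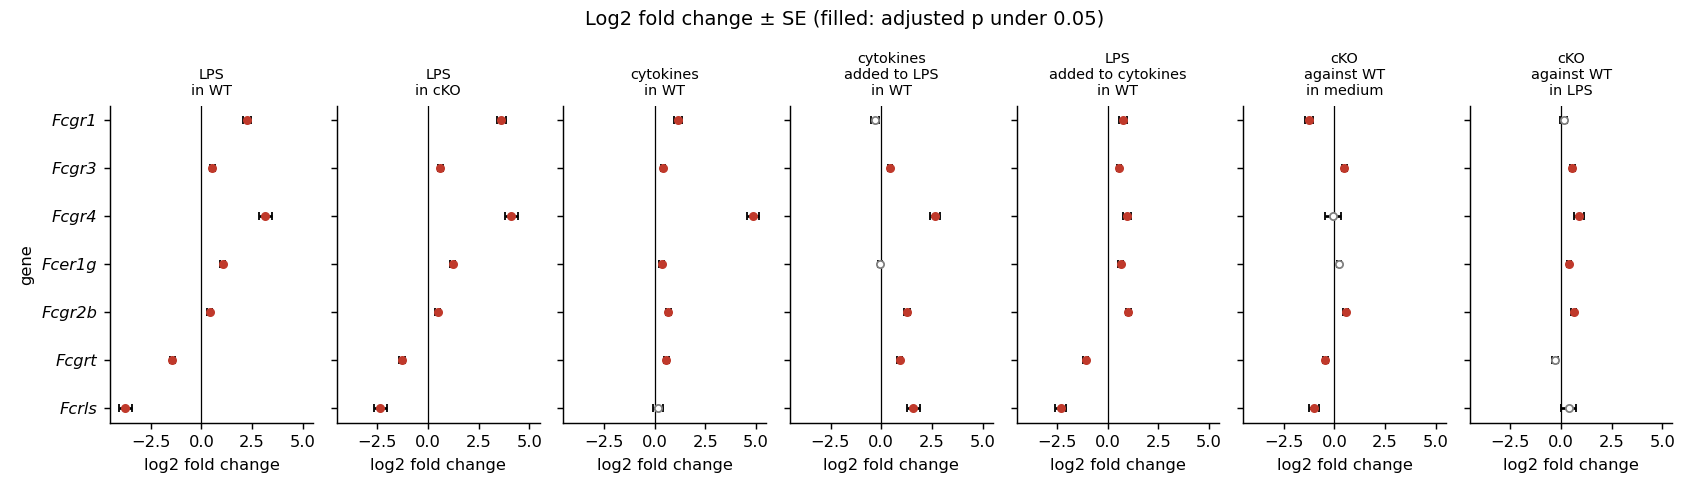
Log2 fold change of each gene in the 7 comparisons between groups, with error bars of 1 SE; filled points passed an adjusted p under 0.05 and open points did not. Fcgr4 stands at 4.87 with the cytokines and Fcrls at -3.75 with LPS in WT cells, the extremes of the plot.

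The balance of activating to inhibitory transcripts was measured within each library as the summed TPM of Fcgr1, Fcgr3 and Fcgr4 over the TPM of Fcgr2b. Fcgr3 made up most of this sum, on average 811 of 845 TPM in WT medium and 1312 of 1584 TPM with LPS and cytokines. The division of reads between Fcgr3 and Fcgr2b is the less certain one described above. The ratio was 1.55, 1.56 and 1.53 in WT medium and 1.85, 1.73 and 2.03 in WT LPS. It was 1.31, 1.36 and 1.72 with the cytokines and 1.02, 0.991 and 1.29 with LPS and cytokines. The libraries given LPS and cytokines were thus lower than those of every other group, and their ratio was 1.71-fold below LPS alone (log2 difference -0.77 ± 0.14, SE). An exact two-sided permutation test of 3 against 3 libraries gave p = 0.1, the smallest it allows (0.14 adjusted over 7 comparisons). Against the cytokines alone the ratio with LPS and cytokines was 1.33-fold lower (-0.42 ± 0.17, exact permutation p = 0.1). The cytokines alone differed from medium by -0.09 ± 0.12, with overlap (exact permutation p = 0.4). The summed activating TPM also rose with LPS and cytokines, to 1584 ± 95.1 TPM (SD, n = 3) from 1142 ± 65.6 TPM in LPS alone.

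In cKO cells the ratio was 1.47, 1.38 and 1.52 in medium and 1.64, 1.80 and 1.75 in LPS. LPS raised the ratio by 0.25 ± 0.06 in cKO and 0.27 ± 0.07 in WT cells on the log2 scale, without overlap (exact permutation p = 0.1 each). The genotypes differed by -0.09 ± 0.04 in medium, without overlap (exact permutation p = 0.1), and by -0.11 ± 0.08 in LPS, with overlap (exact permutation p = 0.3). Fcer1g TPM exceeded the summed activating TPM in every library, from 2.41 times in a cKO medium library to 4.60 times in a WT LPS library.

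**Figure D3:**
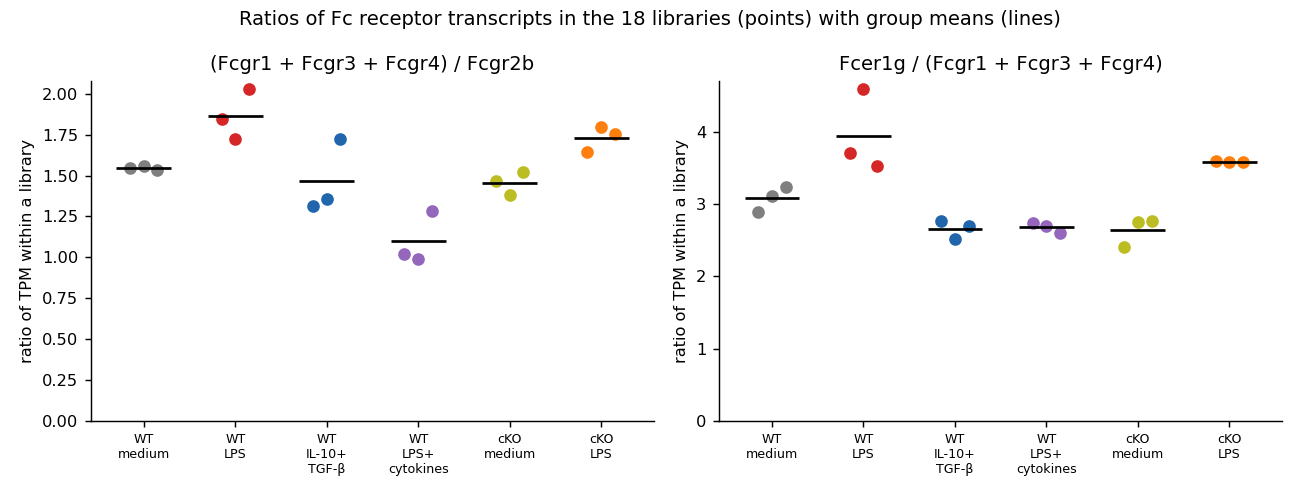
Ratios of TPM within each library by group, with 1 point per library and a line at the mean: activating receptors over Fcgr2b on the left, Fcer1g over the activating receptors on the right. The left ratio is lowest with LPS and cytokines, from 0.991 to 1.29, and highest in WT cells given LPS alone, from 1.73 to 2.03, with cKO cells given LPS at 1.64 to 1.80.

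Fcgrt and Fcrls went the other way with LPS. Fcgrt was at 40.3, 43.4 and 33.1 CPM in WT medium and at 14.9, 14.7 and 13.8 CPM in WT LPS, a 2.69-fold fall (-1.43 ± 0.13, adjusted p = 1.4e-08). The cytokines gave 60.3, 55.1 and 58.1 CPM, a 1.48-fold rise (0.57 ± 0.12, adjusted p = 0.001). LPS with cytokines gave 27.3, 26.2 and 28.1 CPM, between both single treatments: 1.88-fold above LPS alone (0.91 ± 0.14, adjusted p = 1.7e-05) and 2.12-fold below the cytokines alone (-1.09 ± 0.13, adjusted p = 7.3e-07). The LPS effect with and without the cytokines differed by 0.34 ± 0.18, which did not pass (adjusted p = 0.2).

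Fcgrt in cKO cells was at 24.5, 26.5 and 34.3 CPM in medium and at 12.0, 9.82 and 13.2 CPM in LPS. The difference from WT in medium (-0.46 ± 0.13, adjusted p = 0.01) came with overlapping libraries. It no longer passed after removal of cKO medium replicate 1 (-0.36, adjusted p = 0.063) or WT medium replicate 2 (-0.37, adjusted p = 0.051). It was also lost with only the groups compared in the fit (-0.45, adjusted p = 0.065). In LPS the difference was -0.30 ± 0.15 (adjusted p = 0.13), and it passed on the TPM scale (-0.62, adjusted p = 0.0008, with all genes at a median of -0.31). B2m, the light chain with which the neonatal Fc receptor pairs, moved in the opposite direction to Fcgrt with LPS: it rose by 1.62 ± 0.12 in WT cells (adjusted p = 5e-10) and by 1.88 ± 0.12 in cKO cells (adjusted p = 4.3e-11).

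Fcrls had the widest fall. It was at 107, 77.0 and 66.0 CPM in WT medium and at 2.69, 9.92 and 6.07 CPM in WT LPS, 13.4-fold lower (-3.75 ± 0.30, adjusted p = 4.2e-08) and the 37th largest fall of all genes tested. The cytokines alone left it at 104, 90.5 and 85.1 CPM, overlapping with medium (0.16 ± 0.24, adjusted p = 0.66, 95% interval -0.32 to 0.63). With LPS and cytokines it was at 23.4, 16.1 and 16.4 CPM, 3.01-fold above LPS alone (1.59 ± 0.32, adjusted p = 0.00086) and 4.98-fold below the cytokines alone (-2.32 ± 0.27, adjusted p = 4.3e-06). The fall with LPS was smaller with the cytokines than without (interaction 1.43 ± 0.40, adjusted p = 0.019). Without replicate 1 of the LPS and cytokine group that call was lost (1.23, adjusted p = 0.053).

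In resting cKO cells Fcrls was at 39.1, 46.1 and 38.1 CPM, 2.03-fold below WT medium without overlap (-1.02 ± 0.25, adjusted p = 0.0063). With LPS it was at 7.50, 10.3 and 6.46 CPM, overlapping with WT LPS (0.38 ± 0.37, adjusted p = 0.45, 95% interval -0.34 to 1.10). The fall with LPS was 5.09-fold in cKO cells (-2.35 ± 0.31, adjusted p = 6.4e-06). The genotype interaction of 1.40 ± 0.44 (adjusted p = 0.041) was called, and the call was lost without any of 8 single libraries. These were replicates 1 and 2 of cKO LPS, 1 and 3 of cKO medium, 1 and 3 of WT LPS and 1 and 2 of WT medium, with values from 1.04 to 1.5 and adjusted p from 0.054 to 0.11.

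The order of groups by mean CPM differed between members. For Fcgr2b and Fcgr4 the joint treatment was highest, and for Fcgr4 the cytokines came second. For Fcgr1, Fcgr3 and Fcer1g the highest mean was in cKO LPS, which for Fcgr1 overlapped with WT LPS, and WT LPS overlapped with the joint treatment. For Fcgrt and Fcrls the cytokine group had the highest mean, which for Fcrls overlapped with WT medium. The lowest mean was in WT medium for Fcgr2b, Fcgr3 and Fcer1g, and in cKO medium for Fcgr1 and Fcgr4, the latter overlapping with WT medium. It was in cKO LPS for Fcgrt, and in WT LPS for Fcrls, there overlapping with cKO LPS. In TPM, Fcgr3 was highest with the joint treatment, at 1275 to 1368 TPM beside 1123 to 1175 TPM in cKO LPS. Fcgr1 was highest in TPM in WT LPS, at 108 to 129 TPM beside 99.2 to 104 TPM in cKO LPS.

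Markers of other myeloid cells moved with the cytokines, beside the rises of Fcgr4, Fcgr1 and Fcgr2b. Of all genes 18.3% were called higher and 16.9% lower in that comparison. All 11 tested neutrophil and granulocyte precursor markers rose with the cytokines in WT cells, from a summed 438 to 979 CPM in medium to 5406 to 8103 CPM, and S100a8 reached 2801 ± 646 CPM (SD, n = 3). With LPS and cytokines their sum was 3012 to 3989 CPM, where Fcgr4 was higher than with the cytokines alone. Of 11 monocyte and macrophage markers 6 rose and 1 fell with the cytokines. All 9 tested dendritic cell markers fell, from 3855 to 8369 CPM to 1418 to 1875 CPM, among them Itgax, the gene of CD11c (-1.20 ± 0.13). Itgax had mean levels of 267 to 877 CPM over the 6 groups, whereas Flt3 was at most 0.256 CPM on average and at 0 in cKO LPS, and Cd209a was at 0 in cKO LPS and with LPS and cytokines. In cKO medium 8 of 11 granulocyte markers were higher than in WT (beside 15.8% of all genes), at 1009 to 2966 CPM. In LPS their sum was 565 to 1693 CPM in cKO and 798 to 2284 CPM in WT libraries. Of the monocyte and macrophage markers 5 were higher and 3 lower in cKO LPS (beside 16% and 19.3% of all genes). These 11 markers summed to 5800 to 6009 CPM in cKO LPS and to 4001 to 4507 CPM in WT LPS. The part of these cells in the receptor changes was not tested, and in sorted bulk RNA a change in the cells present and a change in RNA per cell cannot be told apart.

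B cell markers, which would accompany Fcgr2b from B cells, summed to at most 1.91 CPM in any library, with Pax5 at 0 in all groups. NK cell markers, which would accompany Fcgr3 from NK cells, summed to at most 0.358 CPM. Mast cell and basophil markers summed to at most 43.8 CPM, highest with the cytokines. There 6 of 7 tested rose and 1 fell, beside 18.3% and 16.9% of all genes. The part of B cells, NK cells, mast cells or basophils in the receptor levels was not tested. The first replicates of both cKO groups had a female pattern (Xist at 5801 and 7168 expected counts, at most 12 elsewhere). Without both, the calls of Fcgrt in medium (-0.36, adjusted p = 0.073) and of the Fcrls genotype interaction (1.42, adjusted p = 0.11) were lost and the other calls of members between genotypes or in cKO cells were kept.

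Of 21 ITAM signalling genes, which act downstream of the activating receptors, 7 rose and 5 fell with LPS in WT cells. Their median was 0.0069, beside 0.01 for all genes, of which 58.7% were called in this comparison (29.8% higher, 28.9% lower). Vav1 (0.80 ± 0.09) and Syk (0.77 ± 0.09), an exchange factor and the kinase docking on the ITAM, rose, and the Src-family kinase Fgr fell (-0.86 ± 0.10). Of 11 inhibitory signalling genes 5 rose and 5 fell (median -0.04), among them the adaptors Dok1 (1.79 ± 0.19) and Dok2 (-2.04 ± 0.11) and the phosphatase Ptpn22 (-1.80 ± 0.16). Of 25 phagocytosis genes 9 rose and 8 fell (median 0.02), with the MARCKS-like gene Marcksl1 at 1.88 ± 0.16, the GTPase Rac2 at 0.89 ± 0.09 and the actin-severing Gsn at -1.15 ± 0.12. Of 5 NADPH oxidase subunits, which make the oxidative burst, 4 rose and 1 fell (median 0.78), with Ncf4 at 0.93 ± 0.10, Cybb at 1.01 ± 0.12 and Ncf1 at 0.78 ± 0.10.

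With the cytokines, where 35.2% of all genes were called (18.3% higher, 16.9% lower), 6 ITAM signalling genes rose and 8 fell (median -0.04). These were led by the adaptor Lat2 (-1.27 ± 0.10), the kinase Prkcd (-1.01 ± 0.09) and Vav1 (0.84 ± 0.09). Of the inhibitory genes 2 rose and 3 fell (median -0.35), with Dok2 at -1.16 ± 0.10, Dok3 at 1.09 ± 0.12 and Ptpn22 at -1.10 ± 0.15. Of the phagocytosis genes 3 rose and 7 fell, and Pla2g4a, a phospholipase, rose by 1.58 ± 0.14. Of the NADPH oxidase subunits 3 rose and 0 fell, with Ncf4 at 0.66 ± 0.10.

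Between genotypes in medium 30.2% of all genes were called, 15.8% higher and 14.4% lower in cKO cells. Of the ITAM signalling genes 1 was higher and 8 were lower (median -0.25). Among the lower ones were Prkcd (-0.49 ± 0.09), the Tec-family kinase Btk (-0.42 ± 0.10) and the adaptor Card9 (-0.94 ± 0.23). Of 11 inhibitory genes 6 were lower and 0 higher (median -0.46), including Dok2 (-0.62 ± 0.10), Inpp5d, which encodes SHIP-1 (-0.56 ± 0.10), and the kinase Csk (-0.51 ± 0.10). Fcgr2b itself was higher in the same libraries. In LPS, where 35.3% of all genes were called (16% higher, 19.3% lower), Inpp5d was again lower in cKO cells (-0.58 ± 0.10, adjusted p = 0.00025). There 0 inhibitory genes were higher and 4 were lower (median -0.07), and ITAM genes were split 5 and 5. Tyrobp, the other ITAM adaptor of myeloid receptors, was higher by 0.40 ± 0.09 in cKO LPS. The list genes are given in CPM only, and on the TPM scale the median of all genes between genotypes in LPS was -0.31.

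**Figure D4:**
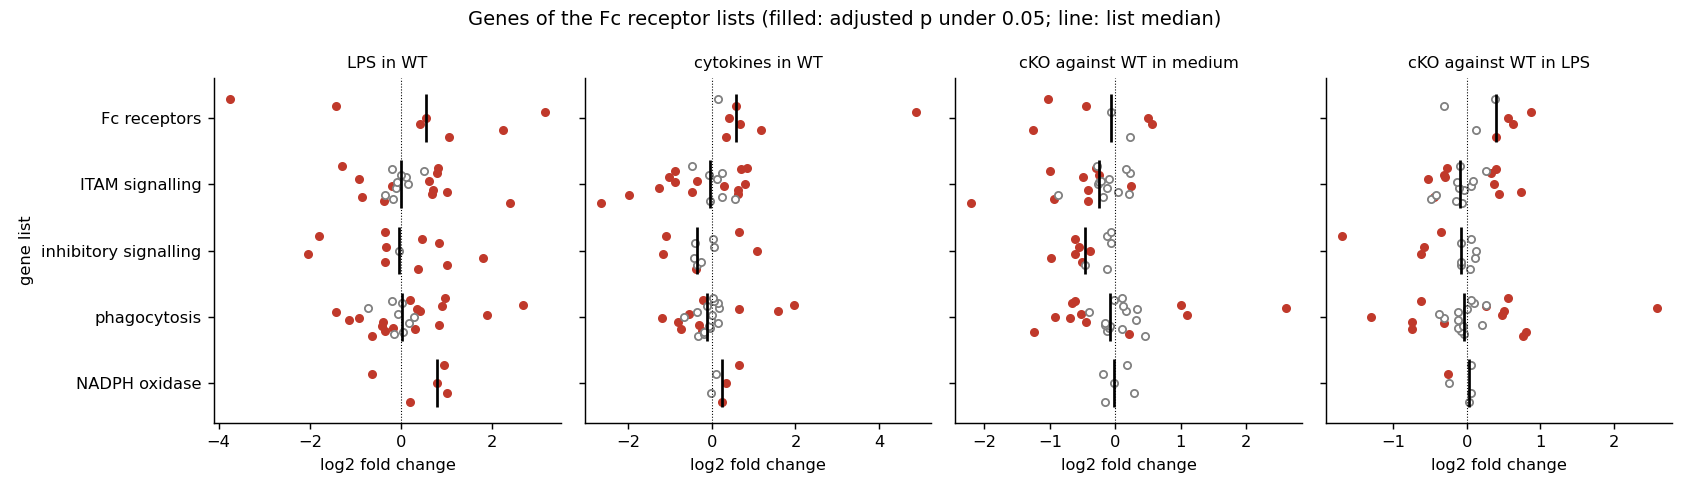
Log2 fold changes of the tested genes of 5 lists in 4 comparisons, with 1 point per gene, filled where the adjusted p was under 0.05, and a line at each list's median. In cKO medium the inhibitory signalling genes have a median of -0.46 with 6 called lower and 0 higher, beside 14.4% and 15.8% of all genes. The 21 ITAM genes in WT LPS are spread around 0.0069.

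Of 12 further Fc receptor and Fc receptor-like genes 4 had enough reads to be tested. Fcrlb, an intracellular Fc receptor-like gene, rose with the cytokines (1.43 ± 0.16, adjusted p = 3.1e-07) and further with LPS and cytokines over LPS (2.22 ± 0.16, adjusted p = 7.5e-10), to 75.4 CPM from 13.4 CPM in WT medium. It was also higher in cKO cells in medium (0.56 ± 0.16, adjusted p = 0.012) and LPS (1.05 ± 0.16, adjusted p = 5.8e-05). Trim21, the cytosolic antibody receptor, rose with LPS in WT (1.60 ± 0.32) and cKO cells (2.70 ± 0.33) at 0.81 to 5.33 CPM. Ms4a2 and Fcrla rose with the cytokines at mean levels of at most 2.44 CPM. Fcer1a, the ligand-binding chain of the IgE receptor that also uses Fcer1g, had a mean of at most 1.07 CPM.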

How the data were processed

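Gene-level expected counts and TPM per library come from the authors' RSEM runs, deposited per library; the submitters' processing notes also name bcl2fastq and the mm10 build. Versions, strandedness and read length are not given in the sources used here. Transcript lengths and effective lengths (other) came with them. The groups were taken from the sample titles.

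Expected counts were rounded. filterByExpr kept 11876 of 23420 genes, libraries were scaled by TMM, and all 6 groups were fitted without covariates by edgeR 4.0.16 (R 4.3.3; robust quasi-likelihood F test). P-values were adjusted by Benjamini-Hochberg over all tested genes in each of 7 comparisons and 2 interactions, with calls at 0.05. The procedure was tested on simulated data. SE is the log2 fold change over the square root of F, and 95% intervals are 1.96 SE. CPM uses TMM-scaled sizes. Alternatives used DESeq2 1.42.0 and limma 3.58.1. Pairs of replicates differed beyond sampling noise (chi-square per degree of freedom 3.64 to 36.3).

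Replicate numbers were checked for pairing by the correlation of same-numbered libraries' deviations over 9411 genes. Only WT medium and WT cytokines had all 3 over 0.1 (0.32, 0.18 and 0.40), so that pairing comes from the data. Members and gene lists were chosen with earlier results of these data known. Named were all 7 members, Bag6, the 2 genes most like each member, up to 3 called genes with the smallest p per list and comparison, and markers. Promoters are from RefSeq (GRCm38.p6), with all 7 genes matched.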

Additional observations from a re-analysis of the deposited data

Results flagged for a closer look

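Members whose response to LPS differed between 2 settings, by the interaction term of edgeR's fit of all 18 libraries, are given here. On the log2 scale, the LPS rise in WT cells was smaller in the presence of the cytokines for Fcgr1 (-1.48, adjusted p = 0.00066) and Fcgr4 (-2.22, adjusted p = 0.00056). It was larger for Fcgr2b (0.60, adjusted p = 0.021), and the LPS fall of Fcrls was smaller (1.43, adjusted p = 0.019). Of all tested genes 20.9% passed this interaction. The LPS rise of Fcgr1 was larger in cKO than in WT cells (1.38, adjusted p = 0.0031), and the LPS fall of Fcrls was smaller (1.40, adjusted p = 0.041). Of all genes 17.4% passed this interaction, and the Fcrls call was lost without any of 8 single libraries.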

How the results depend on the processing

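Fitting the replicate number as a block (replicate block) kept every member's call in all comparisons, for example 7 called with LPS and 6 with the cytokines in WT. On either TPM scale the members called between genotypes in LPS went from 4 higher and 0 lower to 1 higher (Fcgr2b, which kept its call) and 1 lower (Fcgrt, newly called), a total of 2. With only the groups compared, or without both first cKO replicates, those of the genotype interaction fell from 2 to 1. Leaving out single libraries gave 2 to 4 members for the genotypes in LPS, 1 to 3 for the genotype interaction and 2 to 5 for the cytokine interaction. Of 1120 fold changes of members under an alternative, 1057 kept direction and side of the threshold, 33 lost a call, 7 gained one and 23 reversed, and the causes were not tested. Fcgr2b with LPS in cKO cells, which had passed, reversed on both TPM scales (-0.00793 and -0.00794). The other reversed values belong to differences that had not passed. On log2(TPM + 1) and log2(TPM + 0.1) they were Fcgr1 between genotypes in LPS (-0.218 and -0.220) and, for the genotype interaction, Fcer1g (-0.0942 and -0.0943), Fcgr2b (-0.172 and -0.172), Fcgr3 (-0.197 and -0.198) and Fcgrt (-0.0875 and -0.127). The median of all genes for that interaction was -0.251 and -0.334 on these scales, and relative to it all 4 genes were above 0 (0.157 and 0.240 for Fcer1g). Leaving out single libraries, Fcgr4 between genotypes in medium ran from -0.652 to 0.250 (reversed at 0.206, 0.0911, 0.00172 and 0.250, and at 0.206 without both first cKO replicates). Fcer1g for the cytokines added to LPS ran from -0.160 to 0.0914. For the genotype interaction Fcgr2b ran from -0.00636 to 0.166 and Fcgr3 from -0.0418 to 0.180, and for the cytokine interaction Fcgr3 ran from -0.0329 to 0.116 (reversed at -0.0329, -0.00450 and -0.0303). The ratio of activating to inhibitory transcripts kept its direction under all 56 alternatives. With 3 libraries a group its exact test cannot go below 0.1, and the lowest counts are those of Fcgr4 in medium and Fcrls in LPS.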

Other observations

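By Pearson's r of log2 CPM, given as a description over 18 libraries that share 6 treatments, Fcgr1 was most like Irgm1 (0.98) and Ifi203 (0.98), both interferon-inducible genes. Fcgr4 was most like Ly6a (0.98) and Milr1 (0.98), and Fcer1g most like Ifnar2 (0.99), a subunit of the type I interferon receptor, and Npc2 (0.99), a lysosomal cholesterol carrier. Fcgr3 was most like the ubiquitin gene Ubb (0.98) and the ferritin light chain gene Ftl1 (0.96), and Fcgr2b most like the autophagy gene Map1lc3b (0.95) and the metallothionein gene Mt2 (0.94). Fcrls was most like C1qb (0.97), a complement gene of macrophages, and Fn1 (0.95), and Fcgrt most like Chsy1 (0.97) and the iron regulator Hfe (0.97), which like Fcgrt encodes an MHC class I-like protein that pairs with B2m.

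Among the members, Fcrls and Fcgrt had the most similar profiles (r = 0.90), followed by Fcgr3 with Fcer1g (0.87) and Fcgr2b with Fcgr3 (0.85). Fcrls with Fcer1g (-0.82) and Fcgrt with Fcer1g (-0.79) had the most opposed ones.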
